A study of Mus musculus with 12 samples.

Results

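The microRNA miR-22 has several reported targets outside the deacetylase families, and 9 of them were followed here: Purb, Max, Sp1, Cdk6, Tet2, Tet3, Mycbp, Bsg and Ncoa1. The genes were chosen by name from earlier reports on miR-22, with earlier results of these data known. Every array probe annotated with 1 of these symbols was taken, whatever its level. This gave 10 of the 45281 probes in the table, covering 7 of the 9 genes. No probe was listed under Tet2 or Ncoa1, which were not analysed here. The annotation used names 13095 genes in all. A probe was tested when its detection p, which compares its signal with background, was under 0.05 on at least 3 of 12 arrays. Of the 10 probes, 8 were among the 17346 tested, and the single probes of Tet3 and Bsg were not.

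RNA came from CD11c+ lung cells, isolated by AutoMACS and labelled APC. In the lung this integrin chain marks alveolar macrophages and dendritic cells. The 12 arrays formed 4 groups of 3: wild type given PBS, Mir22-/- given PBS, wild type given nCB (nanoparticulate carbon black) and Mir22-/- given nCB. Mice of both genotypes carried the same strain label, B6(Cg)-Tyrc-2J/ J, and an age of 4 months, with exposure begun at 2 months of age and kept up for 1 month. The sources used here do not say how the deletion was made or whether each array of a group stands for its own animal, so p-values measure only the spread between these arrays.

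The mean scanned intensity of an array lay between 156 and 218, 31.4% to 35% of probes were detected on each array, and arrays of the same group correlated at r = 0.985 to 0.992 over the tested probes. Mir22 and its host transcript had no listed probe, which left the deletion itself unchecked. Of the cell type markers, 9 of 12 for alveolar macrophages, 7 of 9 for monocytes or interstitial macrophages and 6 of 9 for conventional dendritic cells had a tested probe, whereas the dendritic markers Flt3, Zbtb46 and Xcr1 did not. Epithelial markers were measured as well, for 5 of 6 genes.

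A microRNA guides an Argonaute protein to messenger RNAs that pair with its seed, the stretch near its 5′ end, and the paired messages are translated less and often degraded sooner. Loss of a microRNA can therefore raise the mRNA of a target, although a target held back mainly at translation need not show it on an array. In the lung, miR-22 has been studied in antigen presenting cells and in emphysema caused by smoke or carbon particles. The 2 mature strands of the deleted gene are printed because their seeds define which sites could have been released. They are the RefSeq sequences on the mouse build GRCm38.p6, with the seed (bases 2 to 8) in capitals, and lie at chr11:75463772-75463793 and chr11:75463734-75463755 on the plus strand.
mmu-miR-22-3p: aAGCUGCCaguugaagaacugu
mmu-miR-22-5p: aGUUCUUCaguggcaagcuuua
Both strands were 22 bases long. Among the 1738 mature mouse miRNAs in the table, 0 others shared the seed of either strand. No other listed miRNA therefore carried these 7-base seeds. Target sites in the transcripts were not searched here.

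Purb encodes a single-stranded nucleic acid binding protein of the Pur family that recognises purine-rich elements and represses transcription in muscle, and it was the only followed gene with a called difference between genotypes. Its first probe (ILMN_2491831, annotated to Purb by symbol with no transcript accession) was higher in knockout than in wild-type cells under nCB. Normalized log2 intensities in wild-type cells under nCB were 8.68, 8.70 and 8.90, and in knockout cells under nCB 9.69, 9.63 and 9.35. All 3 knockout arrays stood above all 3 wild-type arrays, as for 9.84% of all tested probes in this comparison. The mean difference was 0.79 ± 0.12 log2 units (SE, n = 3 per group, 95% interval 0.53 to 1.06), a 1.73-fold higher level (1.44 to 2.08), with an adjusted p of 0.00212 in limma. By p-value the probe ranked 84 of 17346.

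This call was 1 of 8 tested probes in the comparison under nCB, against 3.4% of all tested probes called in either direction and 1.84% called higher in knockout. It held in 21 of 22 alternative settings, including all 12 that left out 1 array, where the highest adjusted p was 0.0159. The PBS arrays do not enter this difference, so leaving out 1 of them changed only the error and kept it at 0.79. Without 1 nCB array it ran from 0.73 to 0.90. When arrays were scaled to a common median in place of quantile normalization, the difference was 0.69 ± 0.23 with an adjusted p of 0.225, and the call was lost.

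Under PBS the same Purb probe read 9.02, 8.95 and 9.05 in wild-type cells and 9.50, 9.29 and 9.29 in knockout cells. Here too the groups did not overlap, with knockout above wild type as for 6.01% of all tested probes. The difference was 0.35 ± 0.12 log2 units (95% interval 0.09 to 0.62) and did not pass, with an adjusted p of 0.385 in limma. Under PBS 0 of the 8 probes were called, against 0.778% of all tested probes. Without adjustment, 1 of the 8 had a p under 0.05 under PBS and 2 had one under nCB, against 7.54% and 16.2% of all tested probes.

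Wild-type cells read lower on this probe under nCB than under PBS on every array, as did 17.3% of all tested probes, by a mean of 0.24 log2 units, which did not pass (adjusted p = 0.221). In knockout cells the nCB and PBS arrays overlapped, and the mean was 0.20 log2 units higher under nCB (adjusted p = 0.341). Group means ± SD (n = 3 each) were 9.01 ± 0.05 in wild type under PBS, 9.36 ± 0.12 in knockout under PBS, 8.76 ± 0.12 in wild type under nCB and 9.56 ± 0.18 in knockout under nCB. Put in order, wild type under nCB was lowest and knockout under nCB highest. The 2 groups at the top of that order overlapped and the 2 at the bottom did not, and no pair of neighbours in it passed the test. The difference between the genotype effects under nCB and PBS was 0.44 ± 0.18 log2 units (interaction in limma, adjusted p = 0.410), so a larger genotype difference under nCB was not shown after adjustment.

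The second Purb probe (ILMN_1247990), annotated to a RefSeq transcript of Purb and detected on 12 of 12 arrays, read 6.11, 5.05 and 5.60 in wild type and 5.89, 6.42 and 6.07 in knockout under nCB. Its groups overlapped, because 1 wild-type array was higher than 2 of the knockout arrays. The difference was 0.54 ± 0.23 log2 units (95% interval 0.05 to 1.03, adjusted p = 0.252 in limma). Under PBS it was 0.20 ± 0.23 (adjusted p = 0.943). Both Purb probes were thus above wild type on average in each exposure, and only the first was called.

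**Figure D1:**
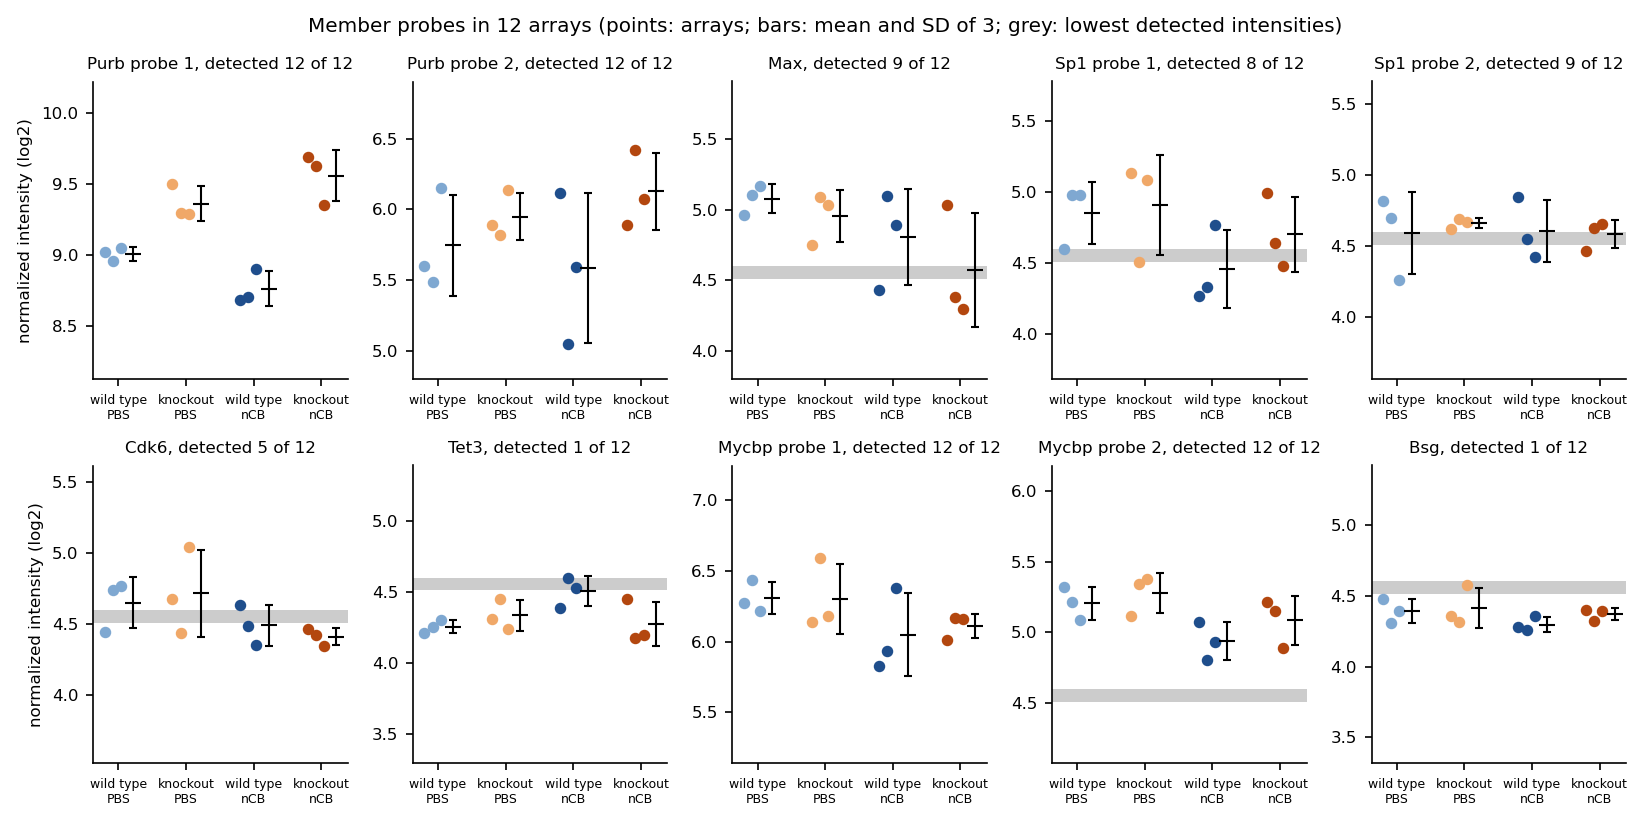
Normalized log2 intensity (y axis, each panel on its own range) of all 10 probes of the followed genes in the 4 groups; points are single arrays, bars the mean and SD of 3, and the grey band spans the lowest intensities of detected probes on the 12 arrays. Purb probe 1 is the only panel in which knockout arrays lie above wild-type arrays in both exposures, while Tet3 and Bsg lie at or below the band.

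Markers of several cell types also differed between the same groups. Under nCB, 4 of 7 tested monocyte or interstitial macrophage markers were lower in knockout, with a summed linear level of 5876 to 7117 in wild type and 2874 to 4529 in knockout. Of the alveolar macrophage markers, 2 of 9 were higher in knockout, with sums of 14260 to 17648 against 20066 to 22298. Among 6 dendritic cell markers 1 was lower, with sums of 1354 to 1659 in wild type and 754 to 1361 in knockout. For B cells, T or NK cells, neutrophils, epithelium, endothelium, fibroblasts and erythroid cells, 0 markers were called between genotypes, and under PBS 0 markers of any type were. Over all tested probes, 3.4% were called under nCB and 0.778% under PBS. Monocyte or interstitial macrophage sums under PBS were nonetheless apart, at 840 to 861 in wild type and 667 to 753 in knockout. Dendritic cell sums were apart too, at 481 to 513 and 346 to 400. Alveolar macrophage sums overlapped, at 23794 to 24705 and 22928 to 25007. The part of these shifts in the Purb difference was not tested. In bulk samples, fewer cells of a type and less RNA per cell cannot be told apart.

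Purb lies on the same chromosome as Mir22, and by gene order in GRCm38.p6 the 2 were separated by 340 measured genes. Of the 40 measured genes nearest to Purb, 1 was called between genotypes under nCB, Ramp3, a receptor-modifying membrane protein, which was lower by a log2 difference of -0.45 (adjusted p = 0.0485). Under PBS 1 was called, the uridine phosphorylase Upp1, at -0.73 (adjusted p = 0.0388). Over all tested probes 3.4% were called under nCB and 0.778% under PBS, so the count under nCB was near the background. The neighbours' differences under nCB ran from -0.45 to 0.42, and 25 of the 40 were above 0. No neighbour therefore had a difference under nCB as large as that of Purb. Purb was singled out by its call, so standing above its neighbours was likely from the start. Any part of its chromosomal position in the difference was not tested. Under PBS Purb, at 0.35, did not stand apart from the neighbours: Upp1 at -0.73, Camk2b at 0.49 and Fignl1 at -0.45 were farther from 0. For contrast, all 3 tested probes of Tlcd2, the gene next to Mir22, were higher in knockout by 1.82 to 2.71 log2 units under PBS and by 2.33 to 3.36 under nCB, and were called in every alternative run.

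**Figure D2:**
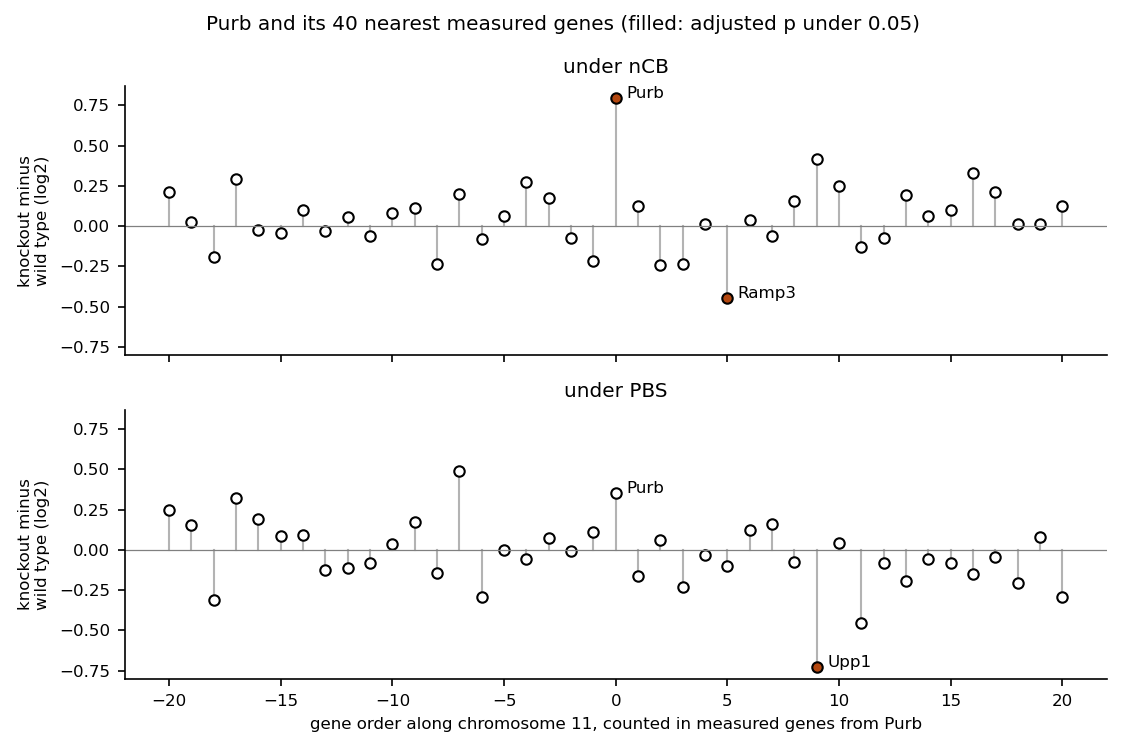
Knockout minus wild type (log2, y axis) for Purb and the 20 measured genes on each side of it, placed by gene order on chromosome 11 (x axis, in measured genes), under nCB (upper panel) and PBS (lower panel); filled points had an adjusted p under 0.05. Purb stands at 0.79 under nCB while its neighbours lie between -0.45 and 0.42.

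The remaining transcription factors among the followed genes are Max, the partner that MYC needs to bind DNA, and Sp1, a zinc finger activator of GC-rich promoters. Max (ILMN_3068231) was dim, detected on 9 of 12 arrays, and its detection ran from 3 of 3 arrays in both PBS groups to 2 of 3 in wild type and 1 of 3 in knockout under nCB. Its log2 intensities were 4.96, 5.10 and 5.17 in wild type and 4.75, 5.09 and 5.03 in knockout under PBS. Under nCB they were 4.43, 5.10 and 4.89 in wild type and 5.03, 4.38 and 4.30 in knockout. The genotypes overlapped in both exposures, and 1 knockout array under nCB stood well above the other 2. Knockout minus wild type was -0.12 ± 0.19 under PBS (adjusted p = 0.962) and -0.24 ± 0.19 under nCB (95% interval -0.65 to 0.18, adjusted p = 0.612).

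The nCB effect on Max in knockout cells was -0.38 ± 0.19 (adjusted p = 0.216). Without that higher knockout nCB array, replicate 1, it was -0.61 with an adjusted p of 0.0337. Replicate 1 was the only knockout nCB array on which Max was detected. The remaining ones, at 4.38 and 4.30, lay below the dimmest detected probes of their arrays (4.53 and 4.57). The size of that difference is therefore not well measured. Max thus passed or failed with that array alone. In the exposure comparisons, 0 of 8 probes were called in wild type and 0 of 8 in knockout with all arrays, whereas 15.9% and 15.2% of all tested probes were.

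Sp1 had 2 probes, both dim. The first (ILMN_2447846), detected on 8 of 12 arrays, read 4.27, 4.34 and 4.77 in wild type and 5.00, 4.64 and 4.48 in knockout under nCB. These groups overlapped, with a difference of 0.25 ± 0.19 (adjusted p = 0.583). Under PBS the difference was 0.06 ± 0.19 (adjusted p = 0.980). In wild-type cells this probe was -0.39 ± 0.19 under nCB relative to PBS (adjusted p = 0.201). The second (ILMN_2616755), detected on 9 of 12 arrays, ran from 4.26 to 4.84 over all arrays and gave 0.07 ± 0.15 under PBS and -0.02 ± 0.15 under nCB (adjusted p = 0.973 and 0.964). The 95% interval under nCB ran from -0.34 to 0.29.

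Mycbp encodes a protein that binds the amino terminus of MYC, and both of its probes were detected on all 12 arrays. The first (ILMN_2933756) read 6.27, 6.44 and 6.21 in wild type and 6.14, 6.59 and 6.18 in knockout under PBS. Under nCB it read 5.83, 5.93 and 6.38 in wild type and 6.01, 6.16 and 6.16 in knockout. The genotypes overlapped in each exposure, with differences of -0.01 ± 0.16 under PBS and 0.06 ± 0.16 under nCB (adjusted p = 0.998 and 0.897, 95% interval under nCB -0.27 to 0.39).

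The second Mycbp probe (ILMN_1251668) gave 0.07 ± 0.13 under PBS and 0.15 ± 0.13 under nCB (adjusted p = 0.968 and 0.639). In wild-type cells it read 5.32, 5.21 and 5.09 under PBS and 5.07, 4.80 and 4.94 under nCB. The nCB arrays were all below the PBS arrays, as for 17.3% of all tested probes. The difference of -0.27 ± 0.13 did not pass (adjusted p = 0.196 in limma).

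Cdk6, the kinase that with cyclin D phosphorylates the retinoblastoma protein at entry into the cell cycle, had 1 probe (ILMN_1259714), detected on 5 of 12 arrays. It was detected on 2 of 3 arrays in each PBS group, on 1 of 3 in wild type under nCB and on 0 of 3 in knockout under nCB. Log2 intensities were 4.45, 4.74 and 4.77 in wild type and 4.67, 4.44 and 5.04 in knockout under PBS, a difference of 0.07 ± 0.15 (adjusted p = 0.974). Under nCB they were 4.64, 4.49 and 4.35 in wild type and 4.47, 4.43 and 4.35 in knockout, where the probe was not well above background. No genotype fold is given under nCB for that reason; the fitted difference had an adjusted p of 0.860. Between exposures in knockout cells, PBS was 1.12-fold higher than nCB when each nCB array was set to its dimmest detected probe. That fold is not a minimum of the true difference. The fitted difference, nCB minus PBS, was -0.31 ± 0.15 log2 units and did not pass (adjusted p = 0.205 in limma).

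Tet3 converts methylated cytosine to its hydroxymethylated form, and Bsg (basigin, CD147) is a membrane glycoprotein that escorts lactate transporters and induces matrix metalloproteinases. Each had 1 probe detected on 1 of 12 arrays, Tet3 (ILMN_1223556) in wild type under nCB and Bsg (ILMN_2647835) in knockout under PBS. Tet3 ran from 4.17 to 4.60 and Bsg from 4.26 to 4.58 over the 12 arrays, while the dimmest detected probe of an array lay at 4.51 to 4.60. These probes were not well above background in nearly all samples, so neither gene had a measurable genotype difference at this signal.

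Counted together, 6 of the 8 tested probes were above wild type in knockout under PBS and 5 of 8 under nCB. The median difference was 0.07 under PBS and 0.11 under nCB, beside medians of -0.003 and -0.005 over all tested probes, of which 49.3% and 49.1% were above 0. For nCB against PBS, 7 of 8 were below 0 in wild type and 6 of 8 in knockout, with medians of -0.25 and -0.19 against -0.02 and -0.02 over all tested probes. In the interaction 0 of 8 were called, against 0.0634% of all tested probes (11 probes), and 1 of 8 had an unadjusted p under 0.05, against 9.96%.

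**Figure D3:**
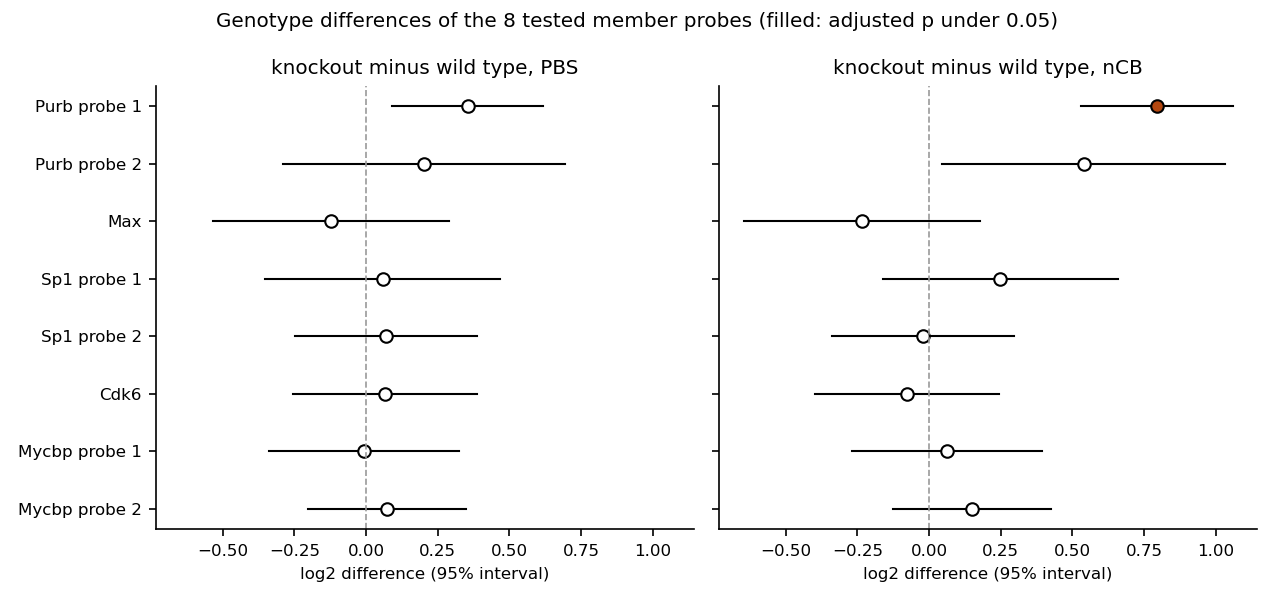
Knockout minus wild type (log2, x axis) with 95% intervals from limma for the 8 tested probes under PBS (left) and nCB (right); the filled point had an adjusted p under 0.05. Only Purb probe 1 under nCB, at 0.79, is filled, and Purb probe 1 is also the only probe whose interval under PBS leaves out 0.

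**Figure D4:**
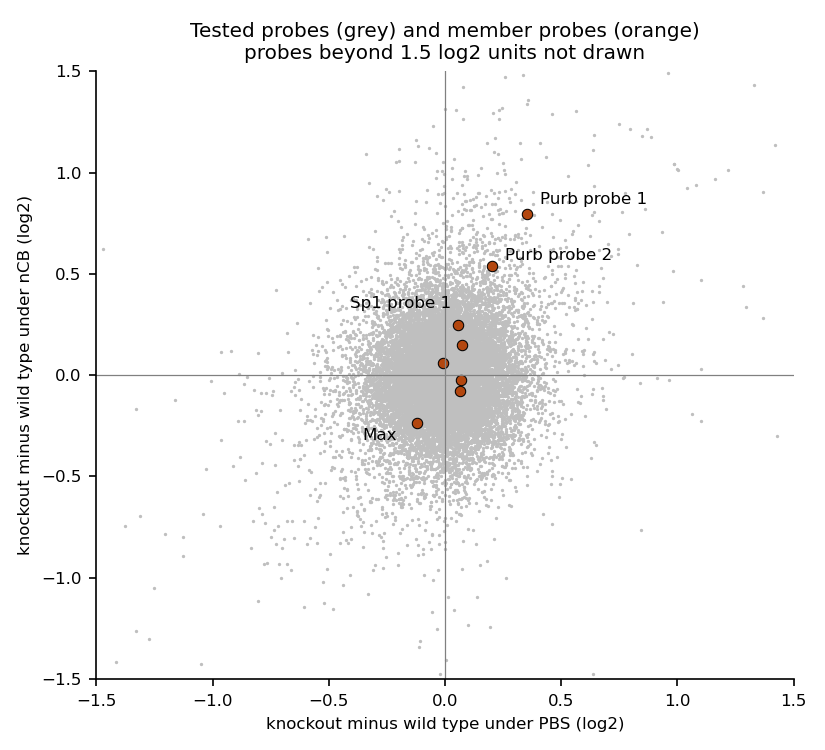
Knockout minus wild type under PBS (x axis) against nCB (y axis), both log2, for the tested probes (grey) and the 8 followed probes (orange); probes beyond 1.5 log2 units are not drawn. Both Purb probes lie up and to the right of the other 6, which sit inside the cloud of all probes. Grey points also lie around and beyond both Purb probes.

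For each gene the 2 probes of other genes with the most similar profile over the 12 arrays were named, as a description of arrays that share groups. Where a gene had 2 probes, its first probe was the reference, and the second was not compared. Closest to Purb probe 1 were Prdm2, a zinc finger protein with a histone methyltransferase domain (r = 0.985), and the chromatin remodeller Chd8 (r = 0.963). Prdm2 averaged 5.79, 6.07, 5.44 and 6.36 in wild type and knockout under PBS and wild type and knockout under nCB, the same order as Purb probe 1. Max was closest to Gid8, a subunit of a ubiquitin ligase (r = 0.938), and to the RNA helicase Ddx6 (r = 0.920). Sp1 probe 1, detected on 8 of 12 arrays, was closest to beta-catenin, Ctnnb1 (r = 0.966), and to the exosome helicase Skiv2l (r = 0.964). For Cdk6 they were the mitochondrial transcription factor Tfam (r = 0.908) and the sialophorin Spn (r = 0.907), and for Mycbp probe 1 the deubiquitinase Stambpl1 (r = 0.943) and Zfp637 (r = 0.859).

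The partners of these genes were read from fixed lists. Around Cdk6, 5 of 34 probes of the cyclin D and retinoblastoma list, from 2 of 19 tested genes, were called higher in knockout under nCB, against 1.84% of all tested probes, and 0 under PBS. All 5 belonged to Ccnd2 and Rb1, so they stand for 2 genes. All 3 probes of Ccnd2, cyclin D2, an activator of CDK4 and CDK6, were higher, by 0.74 to 0.86 log2 units (adjusted p = 0.00276 to 0.00606). The probe ILMN_2700168 of Ccnd2 read 7.26, 7.31 and 7.33 in wild type and 8.00, 8.29 and 8.07 in knockout. These groups did not overlap, with knockout higher as for 9.84% of all tested probes. Median scaling ended 2 of these 3 calls (adjusted p = 0.156 and 0.320).

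Rb1, the retinoblastoma protein that CDK4 and CDK6 inactivate, was higher with both of its probes, by 0.74 ± 0.14 and 0.67 ± 0.15 log2 units (adjusted p = 0.00757 and 0.0219). The former was lost with median scaling (0.0867) and in the authors' processed matrix (0.0540). The latter was lost in those settings (0.459 and 0.103), without a probe filter (0.0617), without wild-type nCB replicate 1 (0.103) or 3 (0.0576) and without knockout nCB replicate 1 (0.0837) or 2 (0.0727). Under PBS the Rb1 probes were above wild type by 0.57 ± 0.14 and 0.51 ± 0.15 and did not pass (adjusted p = 0.0955 and 0.194).

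Around the Max protein, 0 of 14 probes of the MYC partners and antagonists (11 tested genes) were called between genotypes in either exposure. Over all tested probes 0.778% were called under PBS and 3.4% under nCB, so this count was near the background. List medians were -0.08 under PBS and -0.06 under nCB. The lowest p-values under nCB were those of the MAX-binding repressor Mxd3 (0.27 ± 0.11, adjusted p = 0.242), Mlxip (0.27 ± 0.13, adjusted p = 0.350) and Mlx (-0.26 ± 0.13, adjusted p = 0.361). Of the Sp and purine-rich element factors, 0 of 7 probes (4 of 8 genes measured) were called between genotypes. This too was near the 0.778% and 3.4% of all tested probes. The lowest p-value there under nCB was that of the zinc finger factor Klf4 (0.24 ± 0.17, adjusted p = 0.550).

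In the list around Tet2 and Tet3, 1 of 19 probes (13 tested genes) was called under nCB and 0 under PBS, counts near the 3.4% and 0.778% of all tested probes. It belonged to Ogt, the O-GlcNAc transferase that binds TET proteins, which was 0.88 ± 0.14 log2 units higher in knockout (adjusted p = 0.00228). Its arrays read 4.65, 4.73 and 4.88 in wild type and 5.58, 5.60 and 5.70 in knockout. The groups did not overlap, with knockout higher as for 9.84% of all tested probes. The other 3 Ogt probes were 0.14 to 0.30 above wild type and did not pass (adjusted p = 0.452 to 0.773), and in the authors' processed matrix the call was lost (adjusted p = 0.113).

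Of the list around Ncoa1, a steroid receptor coactivator, 1 of 18 probes (10 tested genes) was called in each exposure, against 0.778% of all tested probes under PBS and 3.4% under nCB. It was 1 of the 3 probes of Ncoa4, the receptor coactivator that also carries ferritin to lysosomes, lower in knockout by a log2 difference of -1.90 ± 0.21 under both PBS and nCB (adjusted p = 5.62e-05 and 5.07e-05). The arrays read 8.12, 8.33 and 8.09 in wild type and 6.63, 5.79 and 6.43 in knockout under PBS, and 7.08, 7.83 and 7.31 against 5.66, 5.49 and 5.36 under nCB. The other 2 Ncoa4 probes gave 0.08 and 0.02 under PBS and 0.25 and -0.24 under nCB (adjusted p = 0.977, 0.998, 0.564 and 0.718), so the probes of this gene disagreed.

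Among basigin partners, 1 of 15 probes (8 tested genes) was called under nCB and 0 under PBS, counts near the 3.4% and 0.778% of all tested probes. The called probe was 1 of 7 for the hyaluronan receptor Cd44 (0.63 ± 0.15, adjusted p = 0.0295). That call was lost in 9 of 21 alternatives. Among them were median scaling (0.619), the fit without wild-type nCB replicate 1, 2 or 3 (0.110, 0.0864 and 0.0569) and that without knockout nCB replicate 1 or 2 (0.105 and 0.162).

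Genes that make and use microRNAs gave 2 of 23 called probes under nCB (13 tested genes), against 3.4% of all tested probes, and 0 under PBS, against 0.778%. Ago2, the Argonaute that can cut its target, was 0.56 ± 0.14 higher in knockout by 1 of 3 probes (adjusted p = 0.0331), and the silencing scaffold Tnrc6a 0.63 ± 0.15 by 1 of 3 probes (adjusted p = 0.0358). Ago2 was lost in 9 of 22 alternatives, among them the replicate block (adjusted p = 0.05 when rounded), median scaling (0.546), and the fits without wild-type nCB replicate 1, 2 or 3 (0.127, 0.0674 and 0.0769) or knockout nCB replicate 2 (0.182). Tnrc6a was lost in 10 of 21, among them the replicate block (0.0651), median scaling (0.527), and the fits without wild-type PBS replicate 3 (0.0517), wild-type nCB replicate 1 or 2 (0.175 and 0.0794) or knockout nCB replicate 1 or 2 (0.111 and 0.165). Both calls thus rested on the setting used.

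Other genes reported as miR-22 targets had 9 tested probes from 5 of 14 genes. Of these probes 0 were called between genotypes, near the 0.778% under PBS and 3.4% under nCB of all tested probes. The lowest p-values under nCB were those of Rgs2, a regulator of G-protein signalling (-0.30 ± 0.14, adjusted p = 0.324), the RAC activator Tiam1 (-0.32 ± 0.17, adjusted p = 0.393) and the CDK inhibitor Cdkn1a (-0.23 ± 0.13, adjusted p = 0.444). Of the 9 probes, 4 were called higher under nCB than under PBS in each genotype, all of them of Cdkn1a and Tiam1. In knockout cells 1 was called lower, that of Rgs2, and in wild type 0 were. Over all tested probes, 15.9% in wild type and 15.2% in knockout were called in either direction. The 3 Cdkn1a probes were higher under nCB by 0.89 to 1.15 log2 units in wild type and 0.83 to 1.03 in knockout, and Tiam1 by 1.08 and 1.00. From the list of basigin partners, Mmp14, a membrane-bound metalloproteinase, was higher by 4.17 and 3.71 (each of these increases with an adjusted p of 0.00113 or lower). In that list of 15 probes, 2 were called higher and 4 lower in wild type, and 3 higher and 1 lower in knockout. Between the same groups, monocyte or interstitial macrophage markers were higher under nCB for 5 of 7 genes in wild type and 6 of 7 in knockout. Their summed linear level was 840 to 861 in wild type and 667 to 753 in knockout under PBS, beside 5876 to 7117 and 2874 to 4529 under nCB. Alveolar macrophage markers were lower under nCB for 5 of 9 genes in wild type and 3 of 9 in knockout, with sums of 23794 to 24705 and 22928 to 25007 under PBS and 14260 to 17648 and 20066 to 22298 under nCB. Of 6 dendritic cell markers, 2 were higher and 1 lower in wild type and 2 were higher in knockout, with sums of 481 to 513 and 346 to 400 under PBS and 1354 to 1659 and 754 to 1361 under nCB. The part of these shifts in the exposure differences was not tested.

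Of the deacetylases reported as targets, Hdac4 was 0.68 ± 0.16 log2 units higher in knockout under nCB (adjusted p = 0.0282) and -0.51 ± 0.16 under PBS (adjusted p = 0.265), with an interaction of 1.19 ± 0.23 that did not pass (adjusted p = 0.0631). The nCB call was lost in 9 of 22 alternatives, among them median scaling (0.309) and the fits without wild-type nCB replicate 1, 2 or 3 (0.0816, 0.0784 and 0.0726) or knockout nCB replicate 1 or 2 (0.0690 and 0.166). Sirt1 was 0.29 ± 0.14 above wild type under nCB and did not pass (adjusted p = 0.351).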

How the data were processed

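The deposited table holds scanned intensities of 45281 probes on 12 Illumina bead arrays, exported with GenomeStudio per the submitters' processing notes, with a detection p-value beside each, per the file headers. Labelled cRNA was made from 100 ng of total RNA, per the labels. A second deposited table, the authors' processed matrix, is on a log2 scale, judged from its values; its normalization was not given in the sources used here, and it served as an alternative. Here, neqc of limma 3.58.1 (R 4.3.3) corrected the background from the detection p-values (offset 16), quantile-normalized and took log2. Each of the 17346 tested probes was fitted on all 12 arrays with a mean per group (8 residual and 7.49 prior degrees of freedom). Called means a two-sided Benjamini-Hochberg adjusted p under 0.05 over all tested probes. Errors of differences are limma's SE. The number of arrays limits the precision: 3 arrays against 3 cannot give an exact permutation p under 0.1, so single probes were tested only in limma.

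Probe names came from the platform annotation, in which 20501 probes had 1 symbol and 11 had several. A fold against a group with no detected array was computed with each dim array set to its dimmest detected probe or its own value if higher. Such a fold is not a minimum of the true difference. The members, lists, markers and alternatives were chosen with earlier results of these data known. Named were all probes of the followed genes, 2 closest profiles per gene (to its probe with the highest mean), list genes called between genotypes or otherwise up to 3 with the lowest p, Hdac4, Sirt1 and Tlcd2. Ramp3, Upp1, Camk2b, Fignl1 and Mmp14 were named outside this rule, after their values were seen. Only the fitting step was tested on simulated data, with changes put into knockout against wild type under nCB. Arrays sharing a replicate number were treated as unpaired: 5 of 18 same-numbered pairs had a correlation of deviations over 0.1 (range -0.31 to 0.19). Pairs with different numbers were not compared, so these values cannot show whether the numbers pair arrays. No 2 arrays held identical values.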

Additional observations from a re-analysis of the deposited data

How the results depend on the processing

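The number of called probes among the 8 tested was 1 under nCB between genotypes and 0 with median scaling. Leaving out single arrays gave 0 to 1 for nCB against PBS in knockout cells, the 1 being Max without knockout nCB replicate 1. That replicate was the only knockout nCB array on which Max was detected. Over all probes, genotype calls under nCB (590) came to 164 with median scaling (49 higher, 115 lower, against 319 and 271), 334 without a probe filter, 191 in the authors' matrix, 383 with only the compared arrays and 213 to 718 without single arrays. Under PBS (135) they came to 87 to 142 without single arrays, the lowest without wild-type PBS replicate 1. Exposure calls came to 1635 (from 2755) in wild type and 1087 (from 2634) in knockout with median scaling, where the split was 687 higher to 948 lower and 651 to 436. Interaction calls (11) came to 7 with median scaling, 20 without background correction, 27 with an offset of 50, 7 without a filter, 27 with an intensity trend and robust prior, and 7 to 32 without single arrays. The cause of these differences was not tested. Median scaling moved the median of all probes under PBS from -0.003 to -0.12. With the replicate block, the counts were 0, 1, 0, 0 and 0 of 8 and 116, 461, 2502, 2383 and 13 over all probes (PBS, nCB, nCB against PBS in wild type, in knockout, interaction), and Purb probe 1 had an adjusted p of 0.00590. Of the alternative values of single probes, 2855 stayed on their side of the threshold, 208 lost a call, 3 gained one and 0 called values changed sign. Purb probes 1 and 2 were above wild type in all alternatives in both exposures, and Max was below. Signal limits Max, Sp1 and Cdk6, which lie near background, and leaves Tet3 and Bsg unmeasured.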
